A study of Mus musculus with 30 samples.

Results

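The lysosome breaks down macromolecules with acid hydrolases, which work in a lumen kept acidic by a proton pump, the vacuolar ATPase (V-ATPase). Glycosidases and sulfatases strip sugars and sulfate groups from glycolipids, glycoproteins and glycosaminoglycans, and lipases, proteases, phosphatases and nucleases take apart the rest. The surrounding membrane carries heavily glycosylated structural proteins and the transporters that release the products. In adipose tissue the organelle is prominent in macrophages, which take up lipid from adipocytes and degrade it, and it is present in every other cell type of the tissue.

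Lysosomal gene expression was examined for 50 genes, taken by symbol from a table of 55401 genes. The genes fall into 26 hydrolases and their activators, 10 membrane and luminal proteins and 14 V-ATPase subunits. RNA came from gonadal white adipose tissue (gWAT) of 30 female NZO/HIBomDife mice, an inbred strain that becomes obese on a polygenic background. All animals of both groups were fed a high-fat diet, and the study took the tissue at 10 weeks of age. The diabetes-prone (DP) group held 15 mice and the diabetes-resistant (DR) group, the healthy control, another 15, with 1 library from each mouse. The study assigned mice to a group by a risk score before hyperglycaemia appeared, so that DP describes a predicted course and not established diabetes.

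Total counts ran from 28146906 to 29974243 per library. Levels are given in CPM, counts scaled to a common library size after correction for library composition. All 18 adipocyte markers examined were detected, with a summed level of 33480 to 53580 CPM per library, as the labelled tissue would have. DP and DR were compared for 17482 genes with the edgeR quasi-likelihood F test, Benjamini-Hochberg adjustment over all of them and a threshold of 0.05. All 50 lysosomal genes were tested, and the log2 fold change is DP over DR with its standard error (SE).

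Expression of lysosomal genes was broadly higher in DP than in DR mice. Of the 50 genes, 39 were higher in DP, 1 was lower and 10 did not pass. Among all tested genes, 55.5% passed, 28.2% higher and 27.3% lower in DP. The median log2 fold change was 0.31 over the 50 genes and -0.01 over all genes tested. 11 lysosomal genes were higher by at least 1.5-fold, which held for 7.09% of all genes. In 7 genes (*Hexa*, *Man2b1*, *Galns*, *Lgmn*, *Cd63*, *Grn* and *Atp6v0b*) each DP library lay above each DR library, as in 1.96% of all genes. In 0 of the 50 genes did all DP libraries lie below all DR libraries, which held for 0.927% of all genes. The margin was narrow for *Galns*, with 39.31 CPM in the lowest DP and 39.29 CPM in the highest DR library.

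**Figure D1:**
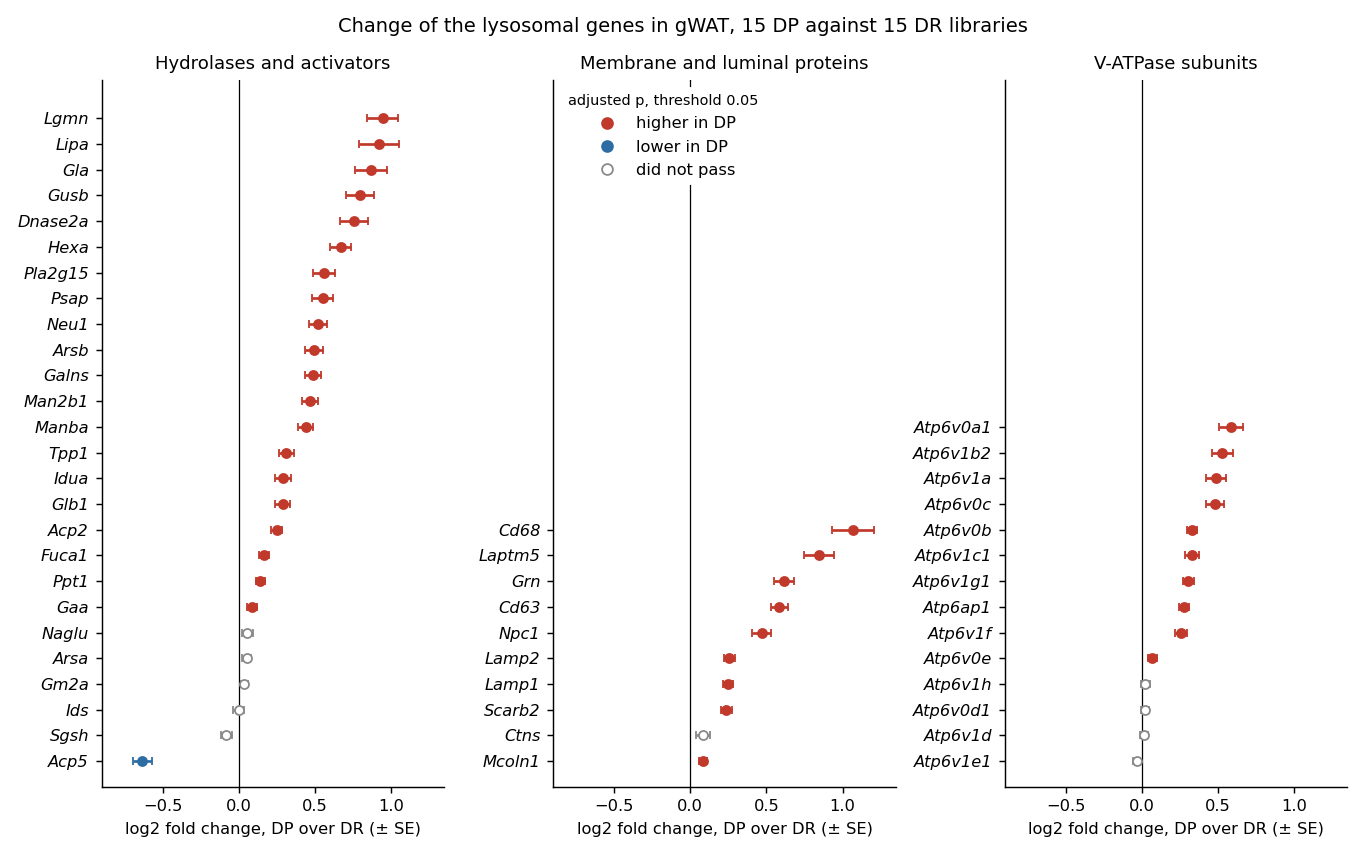
Log2 fold change of DP over DR (x axis, points with SE bars) for the 50 lysosomal genes in 3 classes, each point being 1 gene estimated from 15 DP and 15 DR libraries. Filled red points were higher in DP (39 genes), the filled blue point was lower (*Acp5*), and open points did not pass (10 genes).

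The 3 classes shifted in the same direction. Among the hydrolases 20 of 26 were higher and 1 was lower, with a median log2 fold change of 0.38. Among the membrane and luminal proteins 9 of 10 were higher, with a median of 0.36. Among the V-ATPase subunits 10 of 14 were higher, with a median of 0.29 and a single gene past 1.5-fold. The classes were not tested against each other. Together the 50 genes took 1.34% to 1.73% of all counts in DP libraries (median 1.48%) and 0.856% to 1.3% in DR libraries (median 1.05%). The 2 ranges did not overlap.

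*Lgmn* (ENSMUSG00000021190, chr12:102394084-102439813 on GRCm38, minus strand), which encodes the asparaginyl endopeptidase legumain that processes cathepsins, had the largest fold change among the hydrolases. Its level was 549 CPM in the lowest, 619 CPM in the median and 763 CPM in the highest DP library, against 176, 323 and 488 CPM in DR. The groups did not overlap, and DR 12 (488 CPM) and DR 8 (487 CPM) lay nearest to the DP range. The difference was 1.93-fold (log2 fold change 0.94 ± 0.10, adjusted p = 7.97e-09).

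*Lipa*, the acid lipase that hydrolyses cholesteryl esters and triglycerides delivered to the lysosome, ranged from 344 over a median of 497 to 643 CPM in DP. In DR it ranged from 141 over 252 to 437 CPM. DR 8 and DR 12 reached into the DP range, and the other 13 DR libraries stayed below it. The level was 1.89-fold higher in DP (log2 fold change 0.92 ± 0.13, adjusted p = 5.34e-07).

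*Gla*, the alpha-galactosidase that is deficient in Fabry disease in humans, had a low level with a similar difference. It gave 24.8, 34.6 and 47.4 CPM in the lowest, median and highest DP library and 12.3, 18.5 and 28.4 CPM in DR. Only 3 DR libraries exceeded the lowest DP library. *Gla* was 1.83-fold higher in DP (log2 fold change 0.87 ± 0.11, adjusted p = 4.88e-08).

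*Psap* encodes the precursor of the saposins, small proteins that present sphingolipids to their hydrolases. Per kilobase (kb) of exon it had the highest level of the 50 genes, 1476 ± 134 CPM per kb in DP and 1008 ± 170 CPM per kb in DR (mean ± SD, n = 15 each), followed among the hydrolase genes by *Lgmn* in DP (275 ± 27.8 CPM per kb) and by *Acp5* (187 ± 22.4 CPM per kb) and then *Lgmn* (143 ± 38.4 CPM per kb) in DR. Exon length merges the exons of all annotated transcripts of a gene, so ranks per length between genes depend on that annotation. For *Psap* the libraries gave 3386, 4015 and 4766 CPM in DP (lowest, median, highest) and 2009, 2724 and 3624 CPM in DR. DR 12 and DR 8 were again the only DR libraries inside the DP range. The log2 fold change was 0.55 ± 0.07 (adjusted p = 6.13e-08).

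The glycosidases rose together: 10 of 11 were higher and *Naglu* did not pass. *Gusb*, the beta-glucuronidase, was 1.74-fold higher and *Hexa*, the alpha subunit of beta-hexosaminidase, 1.59-fold. *Neu1*, the lysosomal sialidase, was 1.43-fold higher, and *Man2b1* and *Manba*, an alpha- and a beta-mannosidase, 1.38- and 1.36-fold. At the lower end stood *Idua* (1.22-fold), *Glb1*, the beta-galactosidase (1.22-fold), *Fuca1*, the fucosidase (1.12-fold), and *Gaa*, the acid alpha-glucosidase that degrades glycogen (1.06-fold, adjusted p = 0.0227).

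The sulfatases were divided. *Arsb* and *Galns*, which act on dermatan and chondroitin sulfate and on keratan sulfate, were 1.41- and 1.40-fold higher. *Arsa*, which desulfates sulfatide, *Sgsh* and *Ids* did not pass, and the median log2 fold change of the 5 sulfatases was 0.05. Under a grouping made after the values were seen, 6 enzymes that break down heparan sulfate were compared, and 2 of them were higher, *Idua* and *Gusb*. The other 4, *Ids*, *Sgsh*, *Naglu* and the acetyltransferase gene *Hgsnat* (log2 fold change -0.05 ± 0.02, adjusted p = 0.0854), did not pass.

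Of the 5 lipid-degrading enzymes and activators, 4 were higher. Besides *Lipa* and *Psap*, *Pla2g15*, the lysosomal phospholipase, was 1.47-fold higher and *Ppt1*, the palmitoyl-protein thioesterase, 1.10-fold. *Gm2a*, the activator that lifts ganglioside GM2 to beta-hexosaminidase, had 245, 259 and 291 CPM in DP and 237, 257 and 280.0 CPM in DR (lowest, median, highest), and the groups overlapped over nearly their whole range. Its log2 fold change was 0.03 ± 0.03 (adjusted p = 0.322), while *Hexa*, a subunit of the enzyme it serves, was higher in DP.

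Of the protease, phosphatase and nuclease genes, *Dnase2a*, the acid DNase, was 1.69-fold higher, *Tpp1*, a tripeptidyl peptidase, 1.24-fold and *Acp2*, an acid phosphatase, 1.19-fold. *Acp5* (ENSMUSG00000001348, chr9:22126727-22135711, minus strand) went the other way. It encodes the tartrate-resistant acid phosphatase, known as a histochemical marker of osteoclasts and of some macrophages, and it was the only 1 of the 50 genes lower in DP. Its level was 201 CPM in the lowest, 248 CPM in the median and 345 CPM in the highest DP library, against 306, 380.3 and 471 CPM in DR. The overlap came from a single library, DP 6 with 345 CPM, and the next DP library (DP 14) had 269 CPM. *Acp5* was 1.55-fold lower (log2 fold change -0.63 ± 0.06, adjusted p = 2.90e-09), and 4.6% of all genes were lower by at least 1.5-fold.

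**Figure D2:**
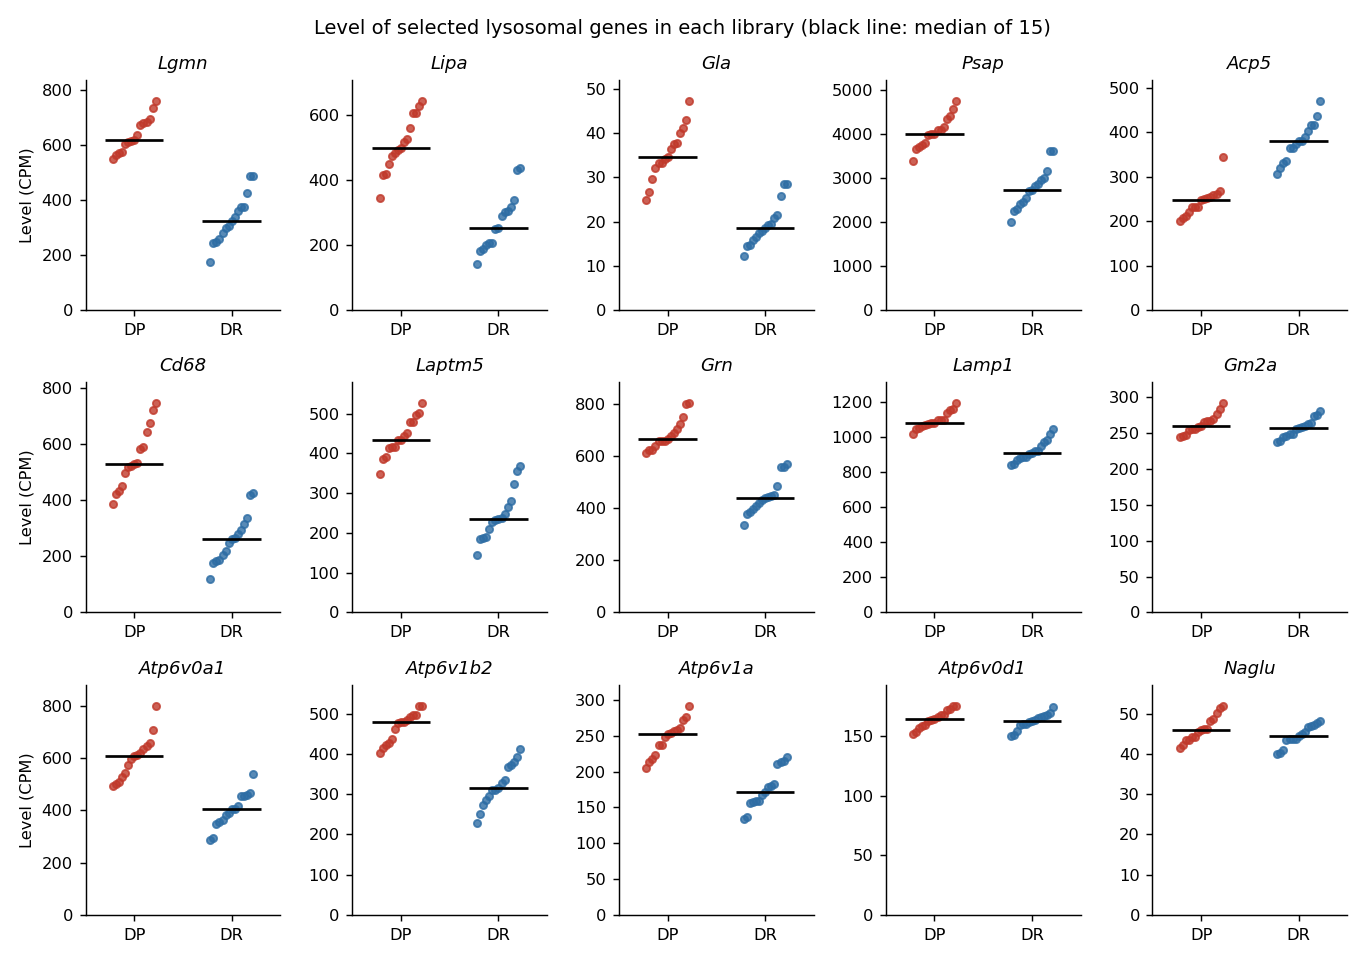
Level in CPM (y axis, starting at 0) of 15 lysosomal genes in each of 15 DP (red) and 15 DR (blue) libraries, sorted within a group, with the median as a black line. For *Lgmn* the DP libraries (549 to 763 CPM) lie above the DR libraries (176 to 488 CPM), for *Acp5* most lie below, and for *Gm2a*, *Atp6v0d1* and *Naglu* the groups overlap.

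Among the membrane and luminal proteins, all 6 structural proteins were higher in DP. *Cd68* (ENSMUSG00000018774, chr11:69664213-69666153, minus strand), a LAMP-family protein abundant in macrophages, had the largest change of the 50 genes. It ranged from 386 over a median of 529 to 745 CPM in DP and from 118 over 262 to 425 CPM in DR. DR 12 (425 CPM) and DR 8 (418 CPM) reached above the lowest DP library, DP 3. The level was 2.09-fold higher in DP (log2 fold change 1.07 ± 0.14, adjusted p = 1.35e-07).

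*Laptm5*, a lysosomal membrane protein of haematopoietic cells, had 348, 434 and 526 CPM in DP (lowest, median, highest) and 143, 235 and 368 CPM in DR. The groups overlapped through DR 12 and DR 8 alone (log2 fold change 0.84 ± 0.10, adjusted p = 2.70e-08). *Grn*, the luminal protein progranulin, is needed for normal lysosomal enzyme activity and is lost in a human neuronal ceroid lipofuscinosis. It lay between 609.9 and 803 CPM in DP (median 667) and between 337 and 571 CPM in DR (median 437), with no overlap. *Grn* was 1.53-fold higher (log2 fold change 0.62 ± 0.06, adjusted p = 2.90e-09).

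*Lamp1*, a main structural glycoprotein of the lysosomal membrane, changed less than these. It had 1018, 1083 and 1195 CPM in DP and 842, 909.7 and 1046 CPM in DR (lowest, median, highest), and 2 DR libraries exceeded the lowest DP library. The difference was 1.19-fold (log2 fold change 0.25 ± 0.03, adjusted p = 6.42e-08). Per length, *Lamp1* had 409.7 ± 17.96 CPM per kb in DP and 345 ± 22.8 in DR (mean ± SD, n = 15), and *Cd68* had 437 ± 86.6 and 209 ± 69.1, so that *Cd68* stood below *Lamp1* in DR and near it in DP.

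*Lamp2*, the second main structural glycoprotein, and *Scarb2*, which carries glucocerebrosidase to the lysosome, were close to *Lamp1* with 1.19- and 1.18-fold. *Cd63*, a tetraspanin, was 1.5-fold higher. Of the transporters, *Npc1*, which exports cholesterol, was 1.39-fold higher (log2 fold change 0.47 ± 0.06), *Mcoln1*, a calcium channel, 1.06-fold (0.08 ± 0.03, adjusted p = 0.0106), and *Ctns*, the cystine exporter, did not pass at a similar fold change (0.09 ± 0.05, adjusted p = 0.108).

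The V-ATPase consists of a cytosolic part, V1, that hydrolyses ATP and a membrane part, V0, that moves protons. Of V0 and its accessory protein *Atp6ap1* 5 of 6 genes were higher (83.3%), and of V1 5 of 8 (62.5%), a difference that was not tested. *Atp6v0a1* (ENSMUSG00000019302, chr11:101009452-101063719, plus strand), the membrane subunit that lines the proton path, had 492, 609 and 801 CPM in DP (lowest, median, highest) and 286, 404 and 538 CPM in DR. Only DR 8 lay inside the DP range. The difference was 1.5-fold (log2 fold change 0.59 ± 0.08, adjusted p = 1.96e-07).

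*Atp6v1b2* and *Atp6v1a* encode the B and A subunits that form the ring in which ATP is bound and hydrolysed. *Atp6v1b2* ranged from 403 over 480.2 to 520.0 CPM in DP and from 228 over 314 to 413 CPM in DR, with only DR 12 inside the DP range (log2 fold change 0.53 ± 0.07, adjusted p = 7.84e-08). *Atp6v1a* ranged from 206 over 252 to 292 CPM in DP and from 134 over 172 to 220.3 CPM in DR, with 4 DR libraries inside the DP range (log2 fold change 0.49 ± 0.07, adjusted p = 3.20e-07). The proteolipid gene *Atp6v0c* (1.40-fold), *Atp6v0b* (1.26-fold), *Atp6v1c1* (1.26-fold), *Atp6v1g1*, *Atp6ap1* and *Atp6v1f* followed, and *Atp6v0e* was the least changed (1.05-fold, adjusted p = 0.0342).

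4 V-ATPase subunits did not pass. *Atp6v0d1*, which couples the central stalk to the V0 ring, had 151, 164 and 175 CPM in DP and 150.1, 163 and 174 CPM in DR (lowest, median, highest), with a log2 fold change of 0.02 ± 0.02 (adjusted p = 0.491). The stalk and regulatory genes *Atp6v1d* (0.01 ± 0.03, adjusted p = 0.719), *Atp6v1e1* (-0.03 ± 0.02, adjusted p = 0.251) and *Atp6v1h* (0.02 ± 0.03, adjusted p = 0.501) had similar levels in both groups. Per length, *Atp6v0d1* was the highest of the 14 V-ATPase genes in DR (90.3 ± 3.73 CPM per kb). It was followed by *Atp6ap1* (61.9 ± 4.56), *Atp6v0a1* (61.2 ± 10.4) and *Atp6v1b2* (61.1 ± 10.1). In DP *Atp6v0d1* (91.6 ± 4.22), *Atp6v0a1* (91.9 ± 12.7) and *Atp6v1b2* (88.1 ± 7.17) lay within their spread of each other. This order rests on the annotated exon lengths. In plain CPM the DR mean of *Atp6v0d1* (162) lay below those of *Atp6v0a1* (401), *Atp6v1b2* (324), *Atp6ap1* (187), *Atp6v1a* (176) and *Atp6v0e* (172).

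**Figure D3:**
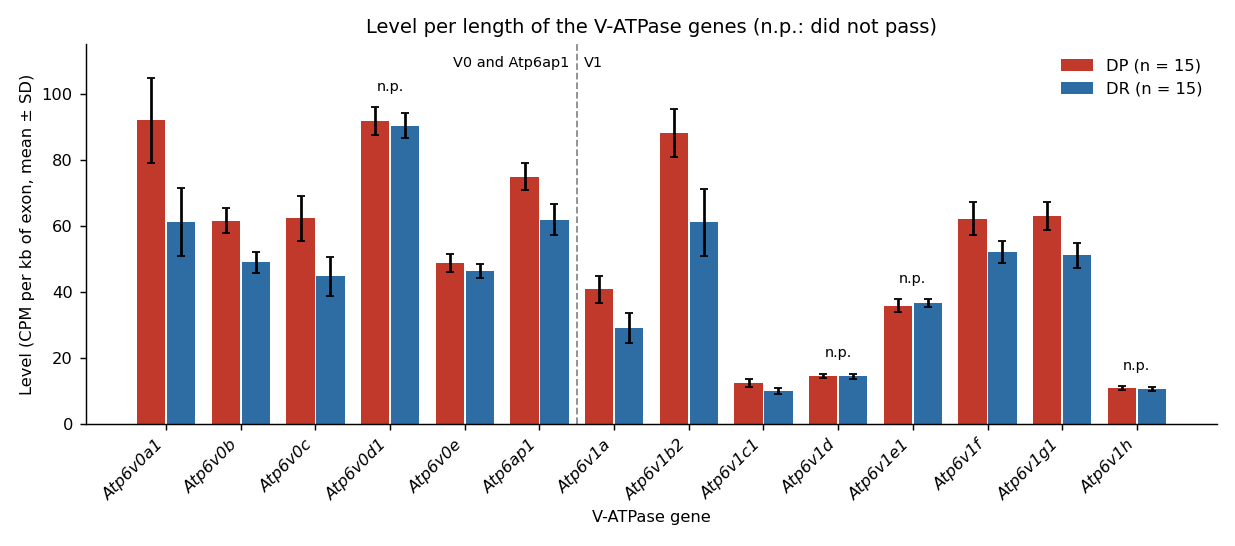
Mean level per length (CPM per kb of exon, bars from 0, error bars SD over 15 libraries) of the 14 V-ATPase genes in DP (red) and DR (blue), with V0 and *Atp6ap1* left of the dashed line and V1 right of it. *Atp6v0d1* has 91.6 CPM per kb in DP and 90.3 in DR, while *Atp6v0a1* has 91.9 in DP and 61.2 in DR.

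The remaining members that did not pass were hydrolase genes with small differences. *Naglu* had a log2 fold change of 0.06 ± 0.03 (adjusted p = 0.172), *Arsa* of 0.05 ± 0.03 (adjusted p = 0.117), *Sgsh* of -0.08 ± 0.04 (adjusted p = 0.0541) and *Ids* of -0.00084 ± 0.03 (adjusted p = 0.986). For *Sgsh*, 955 of 4414 exon bases overlap *Card14* on the other strand (mean level 2.63 CPM, against 41.6 CPM for *Sgsh*). Whether strand was used in counting is not given in the sources used here, so reads in such overlaps cannot be told apart. Among the genes that were higher, 1948 of 6037 exon bases of *Arsb* overlap *Gm26527*, whose level was not used here, 652 of 5186 of *Acp2* overlap *Ddb2* (10.8 CPM), 1616 of 5389 exon bases of *Dnase2a* overlap *Mast1* (1.47 CPM), 129 of 3674 of *Ppt1* overlap *Cap1* (359 CPM), and 511 of 11317 of *Npc1* overlap *Rmc1* (53.3 CPM). Reads of *Atp6v0c* may also be shared with the copy *Atp6v0c-ps2*, which was listed at a mean of 62.6 CPM.

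The members also differed in spread, as did whole libraries. Over all tested genes, the mean correlation of a library with the others of its group was 0.975 to 0.984 in DR and 0.983 to 0.987 in DP. How many of all tested genes varied more in DR was not computed. For 38 of the 50 genes the coefficient of variation was larger in DR than in DP. Over the 39 genes that were higher in DP, its median was 8.84% in DP and 12.6% in DR, and it reached 33.1% for *Cd68* and 32.6% for *Lipa* in DR. The same libraries set the ends of most genes. DR 8 exceeded the lowest DP library in 26 of the 39 genes and DR 12 in 25, followed by DR 9 in 12. DP 2 and DP 3 lay below the highest DR library in 25 and 22 genes, and DR 11 was the lowest DR library in 27 genes. The order of these DR libraries was not particular to the lysosomal genes. On the first principal component of all tested genes (30.2% of the variance), DR 8 (0.67), DR 9 (-1.29) and DR 12 (-2.89) lay nearest to DP. DR 11 (-54.8) lay farthest, and the lowest DP library was DP 6 (10.2). As class means of log2 CPM relative to the DR mean, hydrolases lay between 0.21 and 0.53 in DP and between -0.28 and 0.24 in DR, and membrane and luminal proteins between 0.30 and 0.63 in DP and between -0.33 and 0.34 in DR. V-ATPase subunits lay between 0.11 and 0.42 in DP and between -0.18 and 0.14 in DR.

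**Figure D4:**
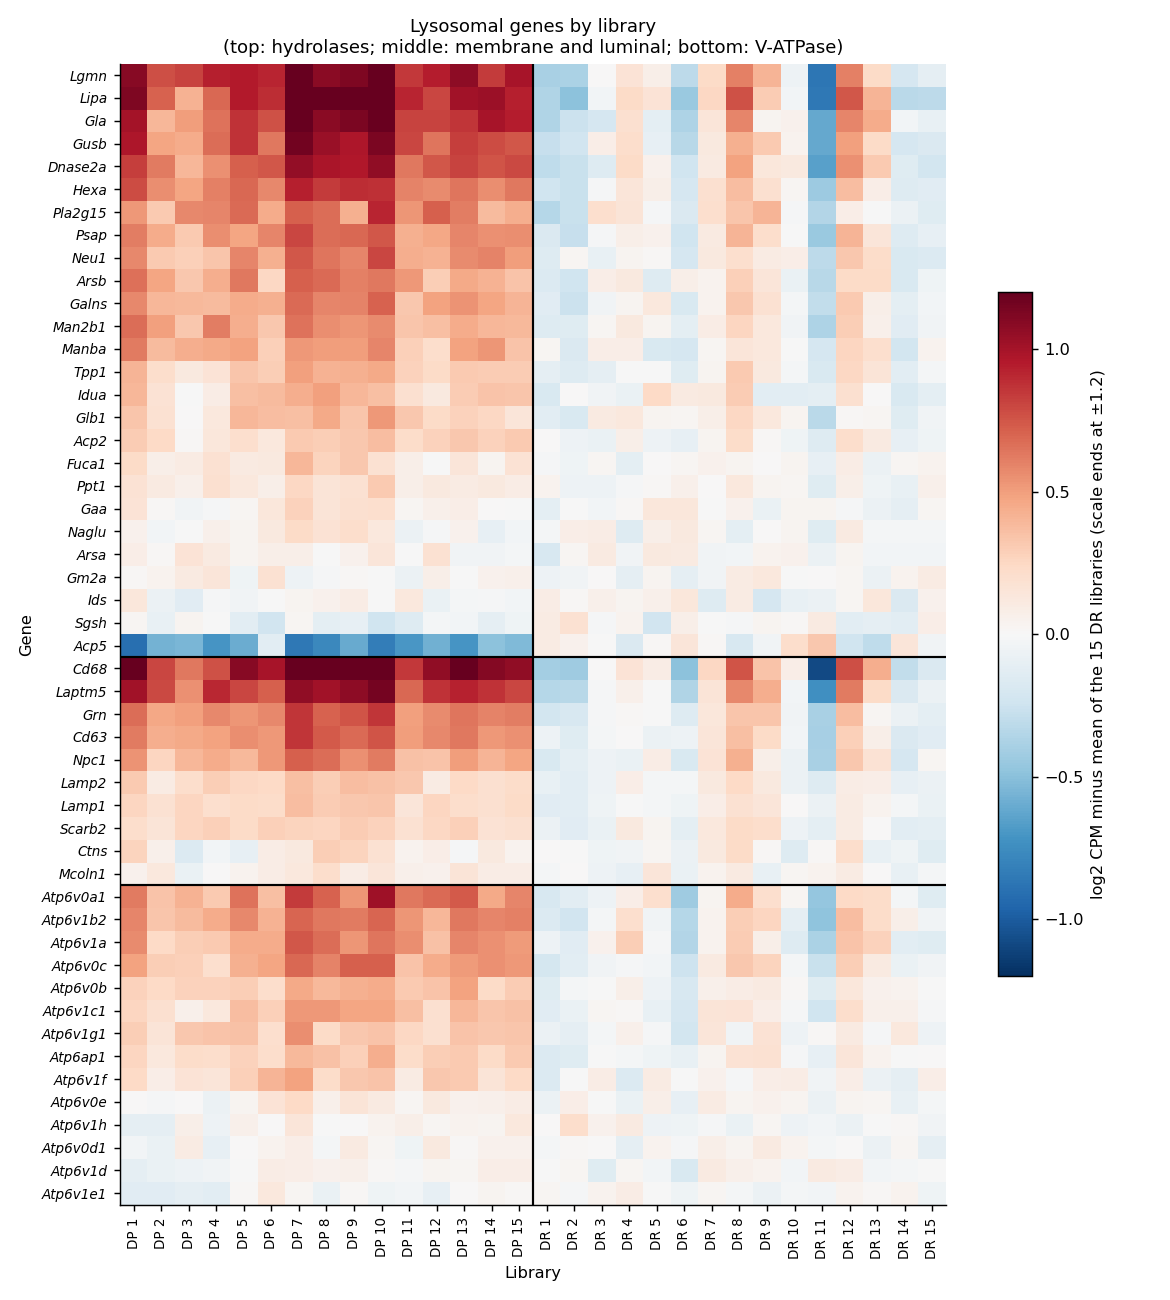
Log2 CPM minus the mean of the 15 DR libraries (colour, red above and blue below) for 50 lysosomal genes (rows, by class and falling fold change) in 30 libraries (columns, DP left and DR right of the black line). DP columns are red for most genes and blue for *Acp5*, DR 8 and DR 12 are the reddest DR columns and DR 11 the bluest, and rows such as *Ids*, *Gm2a* and *Atp6v0d1* stay pale throughout.

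Cell markers moved with the lysosomal genes. The summed level of 20 macrophage markers, none of them among the 50 genes, was 4635 to 6519 CPM in DP and 1842 to 4082 CPM in DR, without overlap, and 17 of the 20 were higher and 2 lower in DP. All 8 markers of lipid-associated macrophages were higher, with sums of 2049 to 4403 CPM in DP and 697.5 to 2284 CPM in DR. All 18 adipocyte markers were lower, with sums of 33480 to 43080 CPM in DP and 44490 to 53580 CPM in DR. Mast cell markers were higher in 4 and lower in 1 of 5 tested genes, with sums of 56.7 to 109 CPM in DP and 44.9 to 62.2 CPM in DR. Neutrophil markers were higher in 3 and lower in 1 of 5 tested genes, with sums of 33.5 to 49.4 CPM in DP and 17.8 to 35.2 CPM in DR. Of 8 T cell markers 3 were higher, of 7 dendritic cell markers 3 were lower and of 7 B cell markers 1 was lower. Of the other lists, 8 of 8 endothelial, 6 of 7 mesothelial and 5 of 7 smooth muscle and pericyte markers were lower, with 1 of the last higher, and 5 of 9 markers of progenitors and fibroblasts were higher and 1 was lower. The part of these cell types in the lysosomal differences was not tested. No marker was at 0 in all libraries. In bulk tissue a changed number of cells of a type and a changed amount of RNA per cell cannot be told apart.

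With the mean of the macrophage markers as a covariate, 0 of the 50 genes passed the edgeR test in either direction, with 2 higher and 0 lower at an unadjusted p under 0.05. With the adipocyte markers as covariate the counts were 0 passing and 1 higher at an unadjusted p under 0.05. No gene of the whole table passed in either fit (783 higher and 1135 lower at an unadjusted p under 0.05 with the macrophage covariate, 680 and 730 with the adipocyte covariate). The median log2 fold change of the 50 genes was 0.00037 and 0.04, respectively. Because the marker sums of DP and DR did not overlap, the group and these markers cannot be told apart in such a fit.

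Within a group, the relation of each gene to the markers does not use the difference between DP and DR. In the 15 DR libraries, 31 of the 50 genes rose and 1 fell with the mean log2 CPM of the 20 macrophage markers (permutation p adjusted over 200 relations). In the 15 DP libraries the counts were 16 and 1, and without the 2 libraries farthest from the median marker level they were 4 (*Man2b1*, *Ppt1*, *Lgmn* and *Laptm5*) and 1. Marker mean and gene come from the same libraries and share their scaling. The share of all tested genes with such a relation was not computed. *Lgmn* followed the markers closely in DR (Pearson's r = 0.98, Spearman's rho = 0.96, adjusted p = 6.67e-05 and 0.000133, from a raw p of 1e-05, the smallest these permutations can give), with r = 0.95 after the 2 libraries farthest from the median were left out. In DP its r was 0.76 and rho 0.77 (adjusted p = 0.00424 and 0.00427), and 0.66 without the 2 farthest libraries. For *Cd68* r was 0.95 and rho 0.95 in DR (adjusted p = 6.67e-05 and 0.000133), and 0.90 without the 2 farthest. In DP its r of 0.58 did not pass (adjusted p = 0.0536) and its rho of 0.60 did (adjusted p = 0.0462).

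All 31 genes that rose with the macrophage markers within DR were among the 39 that were higher in DP. Without the share over all tested genes, this match cannot be read as particular to the lysosomal genes. The 8 others of these 39 were *Gaa*, *Fuca1*, *Idua*, *Ppt1*, *Mcoln1*, *Atp6v0e*, *Atp6v1f* and *Atp6v1g1*. For *Atp6v1g1* the r within DR was 0.48 (adjusted permutation p = 0.119). Without the 2 libraries farthest from the median marker mean it was 0.77 and passed (adjusted p = 0.00973). None of the 10 genes that did not pass between the groups had a relation to the macrophage markers within DR that passed, and their r ranged from -0.41 to 0.50. The match was less close within DP, where 15 of the 16 genes that rose with the markers were among these 39. They included *Gaa*, *Fuca1* and *Ppt1* (adjusted p = 0.0463, 0.0144 and 6.67e-05), which did not pass within DR. The other gene was *Naglu*, which did not pass between the groups and had r = 0.59 and rho = 0.66 within DP (adjusted p = 0.0457 and 0.0213). DR 8 and DR 12, the DR libraries nearest to DP in most genes, ranked 1 and 2 in the macrophage markers among DR, and DR 11 ranked 15. The V-ATPase subunits had a median r of 0.66 in DR, against 0.84 for the hydrolases and 0.88 for the membrane and luminal proteins, a difference that was not tested. In DP none of the 14 subunits passed. The cell type in which the transcripts lay was not tested.

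*Acp5* was inverse in both groups. With the macrophage markers r was -0.79 and rho -0.86 in DP (adjusted p = 0.000385 and 0.000462) and r was -0.83 and rho -0.88 in DR (adjusted p = 0.000509 and 0.0004). Without the 2 farthest libraries r was -0.70 and -0.73. With the adipocyte markers *Acp5* was the only gene with a positive relation that passed, with r = 0.88 and rho = 0.90 in DP (adjusted p = 6.67e-05 and 0.00019) and r = 0.73 and rho = 0.69 in DR (adjusted p = 0.00493 and 0.0152). Without the 2 farthest libraries r was 0.87 in DP (adjusted p = 0.000778), while in DR it was 0.56 and no longer passed (adjusted p = 0.112). The other relations to adipocyte markers that passed were negative, 32 of the 50 genes in DR and 12 in DP, and 27 and 2 without the 2 farthest libraries.

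**Figure D5:**
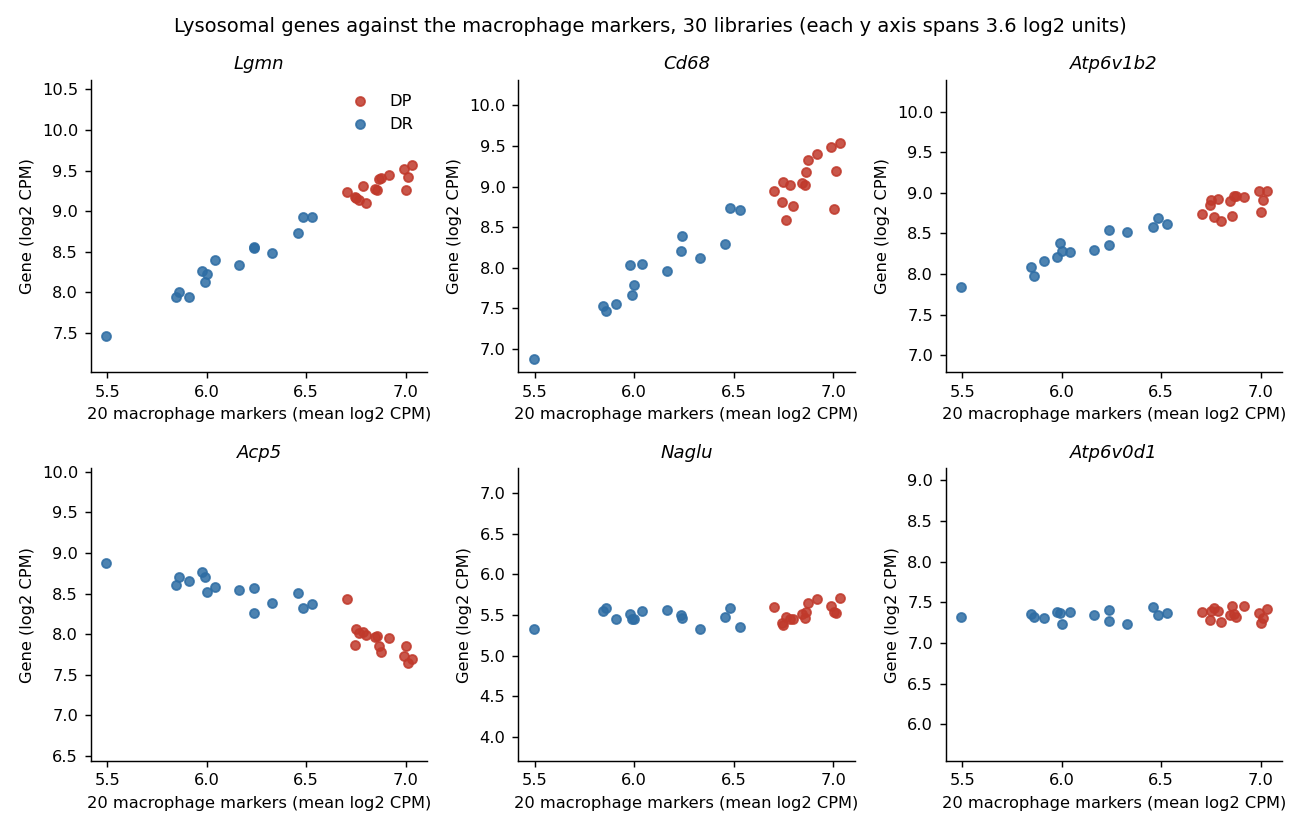
Log2 CPM of 6 lysosomal genes (y axes of equal span) against the mean log2 CPM of 20 macrophage markers (x axis) in 15 DP (red) and 15 DR (blue) libraries, 1 point per library. *Lgmn*, *Cd68* and *Atp6v1b2* climb along the DR points (r of 0.98, 0.95 and 0.95), *Acp5* falls (r of -0.83), and *Naglu* and *Atp6v0d1* stay level along the DR points (r of 0.0078 and 0.19), while along the DP points *Naglu* climbs (r of 0.59) and *Atp6v0d1* does not (r of -0.09).

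Many lysosomal genes carry in their promoters an E-box that the MiT/TFE transcription factors, such as TFEB, are known to bind. RefSeq promoter windows (GRCm38.p6, 250 bases before to 50 bases after a gene's start) were matched for 44 of the 50 genes and not for *Atp6v1b2*, *Atp6v1c1*, *Atp6v1g1*, *Atp6v1h*, *Galns* and *Npc1*. The E-box core CACGTG, which reads the same on both strands, was found in 13 of the 44 genes (29.5%), against 7.15% of all 32851 windows and 11.2% of the 12037 tested genes with a window. The longer form TCACGTGA, which contains the core, was found in 5 genes (11.4%), against 1.99% of tested genes. The full palindrome GTCACGTGAC was found in 0 of the 44 and in 0.706% of tested genes. A match describes the letters of a window and is not evidence of binding.

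The stretches below are those of the 5 genes with the longer form (*Mcoln1*, *Gla*, *Atp6v1a*, *Atp6v0d1* and *Atp6v0e*), of the other genes with more than 1 core (*Lamp1* and *Atp6v0b*) and of *Lgmn*, shown for its fold change. Each runs 5′ to 3′ on the gene's strand from 15 bases before the first core to 15 bases after the last, with the cores in capitals. *Lamp1* (chr8:13159085-13159166, plus strand) held 4 cores, 61, 45, 28 and 15 bases before the start. *Atp6v0b* (chr4:117887327-117887380, minus strand) held 2, 36 and 18 bases before the start. *Mcoln1* (chr8:3500433-3500494, plus strand) held 2, 71 and 45 bases before it, and *Gla* (chrX:134601179-134601247, minus strand) 2, 227 and 194 bases before it. *Lgmn* (chr12:102439121-102439156, minus strand) held 1 at 49 bases before the start of 1 of its 2 windows. *Atp6v1a* (chr16:44139370-44139405, minus strand) held 1 at 131 bases before the start. In *Atp6v0d1* (chr8:105566047-105566082, minus strand) the core began 3 bases before the start and in *Atp6v0e* (chr17:26676384-26676419, plus strand) at base 4 of the transcript. All starts are those of RefSeq. The cores of *Lgmn*, *Atp6v1a* and *Atp6v0e* and the second core of *Mcoln1* lie inside the GENCODE span of the gene. For these genes GENCODE places the 5′ end of the gene further upstream than RefSeq does.
Lamp1: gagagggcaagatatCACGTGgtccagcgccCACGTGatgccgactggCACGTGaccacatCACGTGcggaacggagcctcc
Mcoln1: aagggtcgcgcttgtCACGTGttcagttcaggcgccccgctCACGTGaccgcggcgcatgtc
Atp6v0b: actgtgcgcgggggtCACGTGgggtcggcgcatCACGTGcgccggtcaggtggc
Gla: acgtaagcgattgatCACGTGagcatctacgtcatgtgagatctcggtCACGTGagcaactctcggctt
Lgmn: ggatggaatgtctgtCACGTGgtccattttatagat
Atp6v1a: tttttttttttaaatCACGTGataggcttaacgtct
Atp6v0d1: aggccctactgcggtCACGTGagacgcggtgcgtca
Atp6v0e: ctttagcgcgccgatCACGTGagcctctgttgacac

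Genes with a core had a smaller median change than genes without. Of the 13 genes with a core (*Arsa*, *Atp6v0b*, *Atp6v0d1*, *Atp6v0e*, *Atp6v1a*, *Gaa*, *Gla*, *Glb1*, *Lamp1*, *Lgmn*, *Mcoln1*, *Naglu* and *Sgsh*), 9 were higher in DP and 4 did not pass, with a median log2 fold change of 0.09 and 2 genes past 1.5-fold. Of the 31 genes with a window and no core, 25 were higher, 1 was lower (*Acp5*) and 5 did not pass, with a median of 0.44 and 9 genes past 1.5-fold. Over all tested genes the medians were 0.01 with a core and -0.01 without. These are descriptions of small sets, and the difference was not tested.

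Other lysosomal genes were taken from 5 lists, read beside all genes tested (28.2% higher, 27.3% lower, median log2 fold change -0.01). The share higher was 72.7% for cathepsins (median 0.54), 60% for further hydrolases (0.12) and 55.2% for further membrane proteins (0.16). It was 70% for sorting genes (0.15) and 41.2% for V-ATPase isoforms and accessory genes (0.06). The lists were chosen with earlier results of these data known and were not tested against all genes. Of 11 cathepsins, the main lysosomal proteases, 8 were higher, 1 was lower and 2 did not pass. *Ctss*, prominent in antigen-presenting cells, was 2.14-fold higher (454 ± 65.2 against 212 ± 61.7 CPM, mean ± SD, n = 15) and *Ctsc* 1.58-fold, *Ctsz* 1.5-fold and *Ctsb* 1.46-fold. *Ctsf* was the lower 1 (1.15-fold, adjusted p = 5.28e-05). Of 30 further hydrolases and luminal proteins, 18 were higher, 3 were lower and 9 did not pass. *Asah1*, the acid ceramidase (1.41-fold), *Scpep1*, a serine carboxypeptidase (1.55-fold), and *Ctsa*, the protective protein of sialidase and beta-galactosidase (1.54-fold), were higher. *Smpd1*, the acid sphingomyelinase upstream of ceramidase, was lower, with 96.3 ± 5.80 CPM in DP and 116 ± 5.88 CPM in DR (log2 fold change -0.27 ± 0.03, adjusted p = 1.34e-08).

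Of 29 tested membrane proteins outside the 50 genes, 16 were higher, 5 were lower and 8 did not pass. *Slc15a3*, a peptide and histidine transporter, was 2.02-fold higher (90.7 ± 11.5 against 44.96 ± 13.2 CPM), *Tpcn2*, an endolysosomal cation channel, 1.67-fold, *Cln3* 1.45-fold and *Slc15a4* 1.42-fold. Of 20 genes for mannose 6-phosphate tagging and sorting of hydrolases, 14 were higher, 3 were lower and 3 did not pass. *Ap1b1*, of the AP-1 adaptor (1.31-fold), *Cln6* (1.40-fold) and *M6pr*, a mannose 6-phosphate receptor (1.22-fold), were higher, and *Sort1*, the sorting receptor sortilin, was lower with 529.6 ± 26.7 CPM against 630.4 ± 33.1 CPM (log2 fold change -0.25 ± 0.03, adjusted p = 1.53e-08).

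Of 17 tested V-ATPase isoforms, accessory and assembly genes, 7 were higher, 4 were lower and 6 did not pass. This list held the alternatives to subunits described above. *Tcirg1*, the a3 isoform known from osteoclasts, was 1.81-fold higher, with 34.4 against 19.02 CPM per kb, while *Atp6v0a1* stood at 91.9 and 61.2 CPM per kb and *Atp6v0a2* at 13.2 and 13.7 CPM per kb (adjusted p = 0.255). *Atp6ap2* was 1.38-fold and *Vma21* 1.19-fold higher. *Atp6v0e2* was 1.92-fold lower, with 6.36 CPM per kb in DP and 12.2 in DR, against 48.6 and 46.3 CPM per kb for *Atp6v0e*. *Atp6v0d2*, the alternative to *Atp6v0d1* and named after its values were seen, was 2.31-fold higher, from 20.2 to 167 CPM in DR to 114 to 264 CPM in DP (adjusted p = 8.16e-06). Per length it had 72.6 CPM per kb in DP and 31.5 in DR, beside 91.6 and 90.3 for *Atp6v0d1*.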

How the data were processed

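RNA of gWAT from 30 female NZO/HIBomDife mice was sequenced by the authors' provider, and groups were taken from the disease state given per the labels. The values are estimated counts that the authors deposited for each gene without normalization. The submitters' processing notes name StringTie 2.1.3b and GRCm38.p6. The counts are whole numbers and were used unchanged. Aligner, annotation release and strand setting: not given in the sources used here. 0 count columns were left unused. Each library is 1 animal, and reads are not unique molecules. Over 435 library pairs the chi-square per degree of freedom was at least 7.46, so no library was counted as a repeat of another.

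The 50 genes and all lists were chosen with earlier results of these data known. DP and DR were compared in R 4.3.3 with edgeR 4.0.16 (TMM factors, filterByExpr with a minimum count of 10 and a minimum total count of 15, group as the only term), on 17482 genes. The SE is the log2 fold change divided by the square root of F. CPM use the TMM-scaled library size, log2 CPM a prior count of 2, and exon lengths and overlaps GENCODE M21 on GRCm38. Genes given in full were, per class, the 3 with the largest change among those past the threshold, those called against their class and the 2 with the highest level per length. All genes that did not pass were named, and lists gave up to 4 genes with the smallest p. Some genes of the lists are not reported here. Relations used 100000 permutations in numpy 2.4.6, with ranks from scipy 1.17.1, two-sided, on log2 CPM within a group.

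On simulated data, 29 of 50 genes given a log2 change of 0.32, 40 of 50 changed 1.5-fold and 46 of 50 changed 2-fold were recovered among 17482 genes, and 6.25% of calls were false. The changed genes were drawn from all tested genes. They were a far smaller part than the 55.5% that passed in the data. These shares therefore do not give the sensitivity for the 50 lysosomal genes. Alternatives were DESeq2 1.42.0 (the tool of the study), limma-voom (limma 3.58.1), other scaling, filters and covariates, library numbers and omitted libraries. The labels name neither batch nor date. Promoter windows came from RefSeq (GRCm38.p6).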

Additional observations from a re-analysis of the deposited data

How the results depend on the processing

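Of the 50 genes, 35 to 43 were higher in DP under the alternatives that kept the threshold and had no marker covariate, including DESeq2 (38), limma-voom (40), the lower 15 library numbers (36, with 8 DP and 7 DR libraries), the higher 15 (35) and no composition factor (43). Omitting the least correlated library of each group (DP 4 and DR 7) kept the call of all 50 genes. The number of lower genes was 2, both hydrolases, with DESeq2, relative log expression factors, a mean FPKM over 1 or the library number as covariate, since *Sgsh* joined *Acp5*. With upper quartile factors it was 3, of which 2 were hydrolases and 1 a V-ATPase subunit (*Atp6v1e1*). Over all genes, upper quartile factors gave 4169 higher and 5667 lower and no composition factor 5575 and 4082, against 4933 and 4771. The higher 15 library numbers gave 3055 higher and 3158 lower, with fewer samples. At a fold of at least 1.5 there were 1239 higher and 805 lower genes, among them 11 higher of the 50 (6 hydrolases, 4 membrane and luminal proteins, 1 V-ATPase subunit).

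With either marker covariate 0 genes were called in any class or in the whole table. With the macrophage covariate the log2 fold change turned negative for *Glb1* (-0.0316), *Gusb* (-0.0107), *Naglu* (-3.03e-05), *Man2b1* (-0.0172), *Lipa* (-0.178), *Psap* (-0.049), *Ppt1* (-0.00681), *Tpp1* (-0.0392), *Lgmn* (-0.0245), *Acp2* (-0.00438), *Dnase2a* (-0.00341), *Lamp2* (-0.0194), *Scarb2* (-0.0352), *Cd68* (-0.138), *Laptm5* (-0.0793), *Npc1* (-0.0198), *Ctns* (-0.0914), *Atp6v0d1* (-0.00175), *Atp6v1a* (-0.0288), *Atp6v1b2* (-0.0483) and *Atp6v1d* (-0.0118). With the adipocyte covariate it did so for *Gaa* (-0.00875), *Glb1* (-0.0239), *Naglu* (-0.0719), *Man2b1* (-0.00793), *Fuca1* (-0.0193), *Arsa* (-0.0289), *Arsb* (-0.0447), *Ppt1* (-0.0441), *Tpp1* (-0.0138), *Lamp2* (-0.0248), *Npc1* (-0.00411) and *Ctns* (-0.0801), and *Atp6v1e1* turned positive (0.0369). None of these values passed, and the cause was not tested.

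Genes near 0 changed sign under scaling and subsets. *Ids* was 0.00304 with limma-voom, 0.0282 with no composition factor, 0.00401 with no filter and 0.0204 in the higher 15 library numbers. *Gm2a* was -0.00171 with upper quartile factors and -0.0355 in the higher 15. *Atp6v0d1* was -0.0145 with upper quartile factors and -0.0123 in the lower 15, *Atp6v1d* -0.0226 and, in the higher 15, -0.00116, and *Atp6v1h* -0.0119 and, in the lower 15, -0.0499.

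Fewer relations within DP passed when 2 libraries were left out. Without the 2 libraries farthest from the median marker mean, 4 of 50 genes rose with the macrophage markers in DP, against 16. With the adipocyte markers 2 fell, against 12. The median r over the 50 genes went from 0.51 to 0.381 with the macrophage markers and from -0.455 to -0.336 with the adipocyte markers. Leaving out the most extreme libraries narrows the marker range and lowers the sample size. These counts therefore cannot show that the relations rested on 2 libraries. With no composition factor 30 genes fell with the adipocyte markers in DP. In DR, also without the 2 farthest libraries, 32 genes rose with the macrophage markers, against 31 with all libraries. With the adipocyte markers 27 fell and 0 rose, against 32 and 1 with all libraries. No paired analysis was possible because replicate numbers were given in accession order and pair no animals. Depth was even, from 28146906 to 29974243 counts per library.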

Other observations

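Outside the degradative machinery, other genes act on the surface of the lysosome. Of 18 genes of the Ragulator, Rag and GATOR complexes, which tie mTORC1 to the lysosome in response to amino acids, 6 were higher in DP, 4 were lower and 8 did not pass, with a median log2 fold change of 0.04. The share of higher genes, 33.3%, lay near that of all genes tested, 28.2%, and 27.3% of all genes were lower. *Fnip2*, a folliculin partner, was 1.54-fold higher (56.7 ± 9.46 against 36.8 ± 9.22 CPM, mean ± SD, n = 15, edgeR adjusted p = 7.21e-06), *Fnip1* 1.22-fold (adjusted p = 0.000401) and *Lamtor3* 1.10-fold (adjusted p = 2.69e-05). *Rragd*, the GTPase RagD, was 2.07-fold higher at a low level (2.24 ± 0.667 against 1.078 ± 0.484 CPM, adjusted p = 3.77e-05), while its paralogue *Rragc* had a log2 fold change of 0.01 ± 0.03 (adjusted p = 0.764).

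Of 25 genes of the HOPS, BORC and BLOC-1 complexes and their partners, which move and fuse lysosomes, 12 were higher, 5 were lower and 8 did not pass, with a median of 0.07. *Vps18*, a HOPS core subunit, was 1.37-fold higher (40.7 ± 3.54 against 29.7 ± 3.77 CPM, adjusted p = 3.84e-08), *Plekhm2* 1.34-fold, *Arl8a* 1.26-fold and *Rab7* 1.11-fold. The difference between these lists and the 50 genes was not tested.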
